A study of Mus musculus with 6 samples.

Results

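The genes described here are named for the protein subunits of the mitochondrial ribosome and were chosen by symbol. Every entry was taken whose name starts with Mrpl or Mrps followed by a digit, without pseudogenes, and whose estimate carried the status OK in all 6 libraries. They numbered 76 of 23415 entries with that status, 47 named for the large subunit (Mrpl) and 29 for the small subunit (Mrps). Large and small subunit members below are meant by symbol. Whether each protein sits in that subunit, or in the ribosome at all, was not checked. The RNA came from CD4 T cells of C57/Bl6j mice aged 7 weeks, isolated as naive cells from spleen and nodes. The 6 groups, each a single library, were NLRP3KO and WT naive cells, NLRP3KO and WT cells after 3 days under T helper 2 (Th2) conditions, and NLRP3KO and WT cells after 6 days under those conditions. NLRP3KO mice lack NLRP3, the sensor protein of an inflammasome, and the labels do not say which part of the gene was removed or how many animals were pooled. Th2 cultures were kept on plates coated for stimulation through CD3 and CD28, with 10 ng/ml of IL-4 and a blocking antibody to interferon gamma, and the naive libraries came from cells not put in culture as far as their titles say. The series was designed to follow the expression profile of Th2 cells of both genotypes after 3 and 6 days. With 1 library a group, no difference below has a replicate check, and none is given a p-value.

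Mitochondria keep a small genome of their own, and the proteins it encodes, all core subunits of the respiratory chain and ATP synthase, are made on a ribosome that is distinct from the cytosolic one. Its RNA is transcribed inside the organelle, whereas all of its proteins are encoded in the nucleus, made in the cytosol and imported. Naive T cells are small and metabolically quiet. Activated T cells build up mitochondrial mass and translation as they start to divide, and block of mitochondrial translation is known to limit T cell proliferation and cytokine output.

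The members were spread over 17 chromosomes, with 10 on chromosome 11. Their nuclear control is usually traced to binding sites for NRF-1, ETS family factors such as GABP, and YY1 close to the start of transcription, so the letters of these sites were searched on both strands of the RefSeq promoter windows on GRCm38.p6, which run from 250 bases before to 50 after each start. Windows were matched for 67 members. The NRF-1 letters, GCGC followed by any base and TGCGC, were present in 12 of the 67 windows (17.9%), against 12.9% for genes that reached FPKM 1 in a naive library and 5.19% for all symbols in the table. The ETS letters CCGGAAG were present in 24 windows (35.8%), against 22.8% and 9.93% in the same 2 sets. The YY1 letters AAGATGGC were present in 12 windows (17.9%), against 5.92% and 3.19%. In all, 41 members (61.2%) held at least 1 of these 3, against 36.5% of the genes at FPKM 1 or more and 16.4% of all symbols. The CCAAT box letters CCAAT (40.3% of members, 43.4% and 41.1%), the E box letters CACGTG (7.46%, 12.4% and 8.09%) and the TATA box letters TATAAA (7.46%, 8.26% and 15.7%) were not more frequent among members. The 3 letter strings can overlap within a window. A match describes the letters in a window and is not evidence that a factor binds there.

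Windows are shown for the 5 with a match among the 6 members with the lowest naive log2 difference, NLRP3KO minus WT, given below. Mrps11, which shares its start region with another member, is shown as well. Letters in capitals mark the match, and each line runs 5′ to 3′ along the gene's own strand. Mrps24 (chr11:5707652-5707951, minus strand) and Mrpl42 (chr10:95501900-95502199, minus strand) carried the YY1 letters 36 and 27 bases after the annotated start. Mrpl30 (chr1:37890227-37890526, plus strand) carried the NRF-1 letters 83 bases before it, and Mrps21 (chr3:95871465-95871764, minus strand) carried NRF-1 letters 91 bases before it and reversed ETS letters 18 bases after it. Mrpl33 (chr5:31613701-31614000, plus strand) carried ETS letters 3 bases before the start. Mrps11 (chr7:78782881-78783180, plus strand) carried reversed YY1 letters 107 bases before its start, and its locus lay 41 bases from that of Mrpl46, which is read in the opposite direction. The window of the sixth member, Mrpl23, held none of the 3.
Mrps24: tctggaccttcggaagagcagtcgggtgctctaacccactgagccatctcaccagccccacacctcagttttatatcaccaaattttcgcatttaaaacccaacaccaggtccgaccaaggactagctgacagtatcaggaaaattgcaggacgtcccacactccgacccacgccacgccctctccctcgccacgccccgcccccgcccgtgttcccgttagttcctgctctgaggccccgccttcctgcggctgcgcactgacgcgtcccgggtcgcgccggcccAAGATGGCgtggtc
Mrpl42: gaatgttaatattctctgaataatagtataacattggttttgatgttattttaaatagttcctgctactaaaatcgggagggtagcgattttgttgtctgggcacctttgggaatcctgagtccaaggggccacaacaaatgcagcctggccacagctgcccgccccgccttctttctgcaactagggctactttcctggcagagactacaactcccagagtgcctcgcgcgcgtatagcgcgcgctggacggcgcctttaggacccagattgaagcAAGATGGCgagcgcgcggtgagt
Mrpl30: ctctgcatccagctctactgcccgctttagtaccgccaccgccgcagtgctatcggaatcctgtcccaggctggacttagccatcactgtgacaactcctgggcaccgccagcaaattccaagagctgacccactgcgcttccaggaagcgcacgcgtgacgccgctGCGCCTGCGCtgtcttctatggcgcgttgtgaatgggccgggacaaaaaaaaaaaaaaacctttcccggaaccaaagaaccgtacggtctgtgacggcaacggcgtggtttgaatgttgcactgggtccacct
Mrps21: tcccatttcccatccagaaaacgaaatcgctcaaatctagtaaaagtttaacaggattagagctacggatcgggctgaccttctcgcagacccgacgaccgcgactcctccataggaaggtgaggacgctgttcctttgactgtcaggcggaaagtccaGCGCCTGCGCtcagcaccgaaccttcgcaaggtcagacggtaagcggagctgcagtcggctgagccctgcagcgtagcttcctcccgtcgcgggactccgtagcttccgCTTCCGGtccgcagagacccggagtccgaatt
Mrpl33: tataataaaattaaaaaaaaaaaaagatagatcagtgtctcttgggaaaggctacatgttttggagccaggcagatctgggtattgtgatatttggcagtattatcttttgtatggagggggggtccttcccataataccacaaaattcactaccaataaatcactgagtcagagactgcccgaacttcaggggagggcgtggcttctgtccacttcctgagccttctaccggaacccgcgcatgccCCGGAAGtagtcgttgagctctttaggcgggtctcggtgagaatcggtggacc
Mrps11: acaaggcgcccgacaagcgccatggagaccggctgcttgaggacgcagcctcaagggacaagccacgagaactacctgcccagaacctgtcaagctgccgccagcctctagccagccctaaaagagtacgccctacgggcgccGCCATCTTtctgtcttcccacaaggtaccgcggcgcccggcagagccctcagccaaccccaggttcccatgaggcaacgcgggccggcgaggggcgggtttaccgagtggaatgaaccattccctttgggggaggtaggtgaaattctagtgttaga

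Depth differed widely and limits what can be said of single members. The deposited values are FPKM, fragments scaled to transcript length and library total, with a lower and an upper bound. From the steps of the bounds, fragment numbers could be estimated, not all of them whole (processing is described after the results). Gene models with a recovered length held 909835 and 1098247 fragments in naive NLRP3KO and WT, against between 3903 and 22086 in the 4 Th2 libraries, called fragments on genes below. On a transcript of 1000 bases, 3 fragments gave an FPKM of 1.18 in naive NLRP3KO and 0.796 in naive WT, between 5.82 and 7.38 in NLRP3KO day 3, WT day 3 and WT day 6, and 27.1 in NLRP3KO day 6. Nlrp3 itself was at 0.0569 FPKM in naive WT, a single fragment, and listed at 0 in the other 5 libraries, so the knockout could not be checked. All 6 CD4 T cell markers on the list (Cd3d, Cd3e, Cd3g, Cd4, Cd28 and Lck) were above 0 in both naive libraries. Their summed FPKM was 1587 and 1217 in naive NLRP3KO and WT, and between 35.5 and 58.3 in the Th2 libraries, where 4 to 6 of the 6 were above 0. Markers of other cells were low in the naive libraries, with summed FPKM of 33.0 and 74.2 in NLRP3KO and WT for 4 B cell markers, 16.3 and 17.0 for 4 CD8 T and NK cell markers, 17.1 and 13.6 for 5 myeloid markers and 5.13 and 6.87 for 4 erythroid and platelet markers. In the Th2 libraries these were all listed at 0, except Cd79b at 1.57 in WT day 3. In bulk RNA, fewer cells of a type and less RNA per cell cannot be told apart.

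In naive cells all 76 members were above 0 in both libraries, with a median FPKM of 14.6 in NLRP3KO and 13.2 in WT. The levels of members spanned 53.8-fold in NLRP3KO and 95-fold in WT, although the assembled ribosome holds its subunits in fixed proportion. Large and small subunit members had median FPKM of 14.9 and 14.1 in NLRP3KO, and of 11.1 and 14.3 in WT. FPKM is a level per transcript length, so members are set side by side on it, with the limit for short transcripts given below.

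The highest 3 were short transcripts. Mrpl33, a homolog of a bacterial large subunit protein (mm9 chromosome 5, 31916324 to 31925017), had an FPKM of 84.2 in NLRP3KO and 130.4 in WT. Mrpl52, a subunit with no bacterial counterpart (chromosome 14, 55045746 to 55048587), had 97.9 and 113.8 FPKM in NLRP3KO and WT. Mrps21, a small subunit protein with a bacterial homolog (chromosome 3, 95666575 to 95674542), had 80.3 in NLRP3KO and 126.6 in WT. These transcripts measured 466, 412 and 407 bases, the last being the shortest of all members, whose median was 1048 bases. The deposited FPKM of all 3 exceeded its own upper bound in both libraries (for Mrps21, 65.5 in NLRP3KO and 100.5 in WT). The same held in WT alone for Mrps16 and Mrpl30, and for no member over 691 bases. The effective length, the transcript length less the mean fragment length of 180.3 bases in NLRP3KO and 175.9 in WT, entered the FPKM but not the bounds in the model inferred from the files, so the level of a short member depends strongly on that subtraction.

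The other members among the 10 highest were Mrpl24, Mrps16, Mrpl30, Mrpl18, Mrpl54, Mrpl36 and Mrpl12. Mrpl24 had 64.4 FPKM in NLRP3KO (bounds 53.9 to 74.8) and 62.5 in WT (54.0 to 71.3), but its locus overlaps Rrnad1, so its reads may be split between genes. Mrps16, a subunit whose loss causes a respiratory chain deficiency in humans, had 44.1 FPKM in NLRP3KO and 52.1 in WT. Mrpl12, a protein of the ribosomal stalk that also binds the mitochondrial RNA polymerase, had 27.6 in NLRP3KO and 28.0 in WT. Mrpl36 stood at 28.9 and 27.7 FPKM in NLRP3KO and WT. The bounds of all 7 overlap between genotypes, and those of Mrpl36 and Mrpl12 overlap within each library.

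At the low end, Mrpl17 had 1.82 FPKM in NLRP3KO (bounds 1.24 to 2.39) and 1.37 in WT (0.945 to 1.79). Its transcript of 6712 bases was the longest of all members. Mrpl19, Mrpl1, Mrpl35 and Mrps25 followed, between 3.26 and 4.79 FPKM in NLRP3KO and between 2.95 and 5.04 in WT. Mrpl1, Mrpl19 and Mrps25 had no recovered length, and Mrpl19 and Mrps25 overlap AW146020 and Nr2c2. The 3 paralogs of bacterial S18, counted here with the small subunit by symbol although the protein of Mrps18a sits in the large subunit of the human ribosome, lay close together. Mrps18a had 16.2 FPKM in NLRP3KO and 12.9 in WT, Mrps18b had 13.6 in NLRP3KO and 15.8 in WT, and Mrps18c had 22.0 in NLRP3KO and 22.8 in WT, with bounds that overlap between genotypes and among the paralogs.

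**Figure D1:**
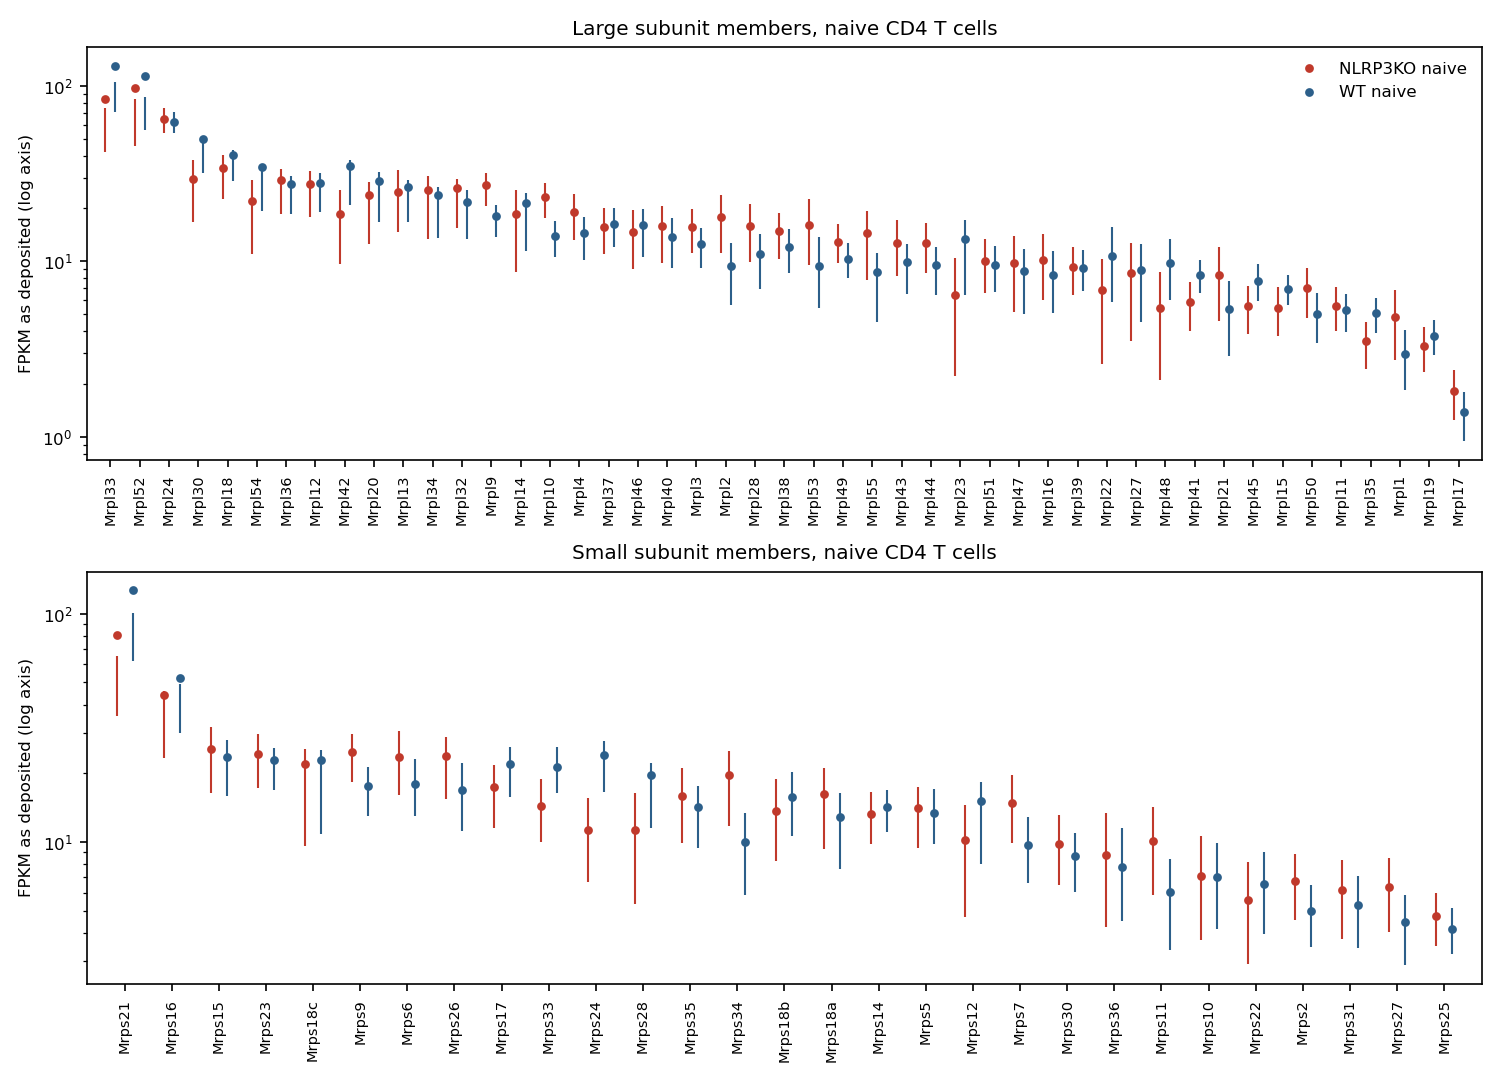
FPKM as deposited (log axis) of each member in the naive NLRP3KO (red, left) and naive WT (blue, right) libraries, ordered by the mean of both, large subunit above and small subunit below; vertical lines are the authors' lower to upper bounds. Mrpl33, Mrpl52 and Mrps21 stand highest with points above their own bounds, and Mrpl17 stands lowest at 1.82 and 1.37 FPKM in NLRP3KO and WT.

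Between the naive libraries the members stood lower in NLRP3KO than in WT relative to other genes. Pooled, the 76 members had 3477 fragments in NLRP3KO and 5125 in WT, set against 909835 and 1098247 fragments on genes, or 38.2 and 46.7 per 10000. The ratio of these shares was 0.819 (95% interval 0.784 to 0.855, exact binomial, covering counting error only). The large subunit gave 0.814 (0.771 to 0.859) and the small subunit 0.828 (0.769 to 0.890), with overlapping intervals. These intervals compare the reads of 2 libraries, not the genotypes. The pooled ratio depended on the yardstick, at 0.996 (0.954 to 1.04) as a share of the totals to which the authors had normalized, where the interval includes 1, 0.744 with size factors taken as the median ratio of FPKM over 1059 genes, and 0.693 for summed FPKM after that scaling.

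Gene by gene, the log2 difference of FPKM scaled by median ratio, with a pseudocount of 1, was below 0 for 60 of the 76 members. Among the 9985 genes that reached FPKM 1 in a naive library, 48.1% were below 0. The median was -0.27 for members and 0.01 for those genes. Scaling moves both: with FPKM as deposited the members' median was 0.07 and that of all genes 0.37, with 32 members below 0. Relative to the median of all genes the members' median was -0.29 with median-ratio scaling and -0.30 as deposited, and 60 and 58 of the 76 members lay under the median of all genes. Large subunit members had a median of -0.30 and small subunit members of -0.27.

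No member was at least 2-fold higher in NLRP3KO, against 21 of all 9985 genes (0.21%), and 6 (7.89%) were at least 2-fold lower, against 232 (2.32%). Counting either direction, 2.53% of all genes passed. Mrps24, a small subunit protein (mm9 chromosome 11, 5603986 to 5607702), had 11.3 FPKM in NLRP3KO (bounds 6.70 to 15.6) and 24.0 in WT (16.5 to 27.6), a log2 difference of -1.24. Its estimated fragments were 29 in NLRP3KO and 91 in WT. Mrps24 was the only member 2-fold apart after scaling whose bounds as deposited did not overlap. Here and below the bounds are unscaled, whereas the log2 differences are scaled, with size factors of 4.08 in naive NLRP3KO and 3.05 in naive WT. Whether bounds scaled in the same way would overlap was not checked. Mrpl42, a large subunit protein without a bacterial counterpart (chromosome 10, 94943440 to 94964561), had 18.5 FPKM in NLRP3KO (9.65 to 25.6) and 34.8 in WT (21.0 to 37.8), a log2 difference of -1.17. The unscaled bounds of Mrpl42 overlap.

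Mrpl30 (chromosome 1, 37947398 to 37955178) had 29.6 FPKM in NLRP3KO and 50.1 in WT, a log2 difference of -1.08. Mrpl23, whose bacterial homolog lines the exit tunnel of the nascent chain (chromosome 7, 149719022 to 149726647), had 6.40 in NLRP3KO and 13.5 in WT, a log2 difference of -1.08 that rested on 8 and 25 fragments. Mrps21 and Mrpl33, with the levels given above, differed by -1.04 and -1.02. Of the 6, 5 have transcripts of at most 700 bases. With FPKM as deposited 1 member was 2-fold apart, against 6.7% of all genes. With a pseudocount of 5 none was, against 1.1%, and with a pseudocount of 0.1 there were 10, against 8.02%. All of these members were lower in NLRP3KO.

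The highest differences were smaller. Mrps34 had 19.7 FPKM in NLRP3KO (11.8 to 25.0) and 10.00 in WT (5.85 to 13.4), a log2 difference of 0.44. Mrpl2, a homolog of a bacterial protein near the peptidyl transferase centre, had 17.8 FPKM in NLRP3KO (11.1 to 23.8) and 9.42 in WT (5.62 to 12.8), a log2 difference of 0.39. Mrpl10, a protein of the stalk base, had 23.3 in NLRP3KO (17.6 to 28.1) and 13.9 in WT (10.5 to 17.0), a log2 difference of 0.27. Mrpl10 was the second member whose bounds as deposited did not overlap between genotypes. By these unscaled bounds 28.2% of all genes were apart and higher in NLRP3KO, so this gap does not set Mrpl10 apart from other genes. Mrpl53, Mrpl55 and Mrps11 differed by 0.28, 0.24 and 0.21, and the bounds of each overlap. Mrps11 and its head-to-head neighbour Mrpl46 stood on opposite sides of 0, Mrps11 at 10.1 FPKM in NLRP3KO and 6.05 in WT, and Mrpl46 at 14.8 in NLRP3KO and 16.2 in WT, with overlapping bounds in both cases.

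By the bounds of the unscaled FPKM, 2 of 76 members (2.63%) were apart between the naive libraries, against 3100 of 9985 genes (31%). Of these, 1 member and 2820 genes (28.2%) were higher in NLRP3KO, and 1 member and 280 genes (2.8%) were lower. By the exact interval of each gene's share of fragments, 14 of the 61 members with a recovered length (23%) had an interval below 1, against 749 of 6736 genes (11.1%), and 2 members (3.28%), Mrpl10 and Mrps34, had one above 1, against 1387 genes (20.6%).

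Transcript length went with the naive difference. Members were short, with a median of 1048 bases against 2491 for genes at FPKM 1 or more with a recovered length. Across members, the Spearman correlation of length with the log2 difference was 0.37 (n = 76 genes), or 0.48 for the 61 with a recovered length, and across those 6754 genes it was 0.24, as descriptions over genes of the same 2 libraries. Up to 700 bases, 16 members had a median log2 difference of -0.62 and 321 genes one of -0.71. From 700 to 1000 bases, 18 members had -0.23 and 414 genes -0.33. From 1000 to 1500 bases, 22 members had -0.20 and 839 genes -0.12. Above that the members lay further below the other genes. Up to 2500 bases, 13 members had -0.08 and 1804 genes 0.04. Beyond 2500 bases, 7 members had -0.31 and 3360 genes 0.05. The genes all have recovered lengths, whereas members with less exact lengths were kept in these ranges. Of the 7, Mrpl15, Mrpl19, Mrpl41 and Mrps25 have less exact lengths, and that of Mrpl41, 2729 bases, exceeds the span of its locus. Mrpl11, Mrpl17 and Mrpl35, with recovered lengths, had -0.20, -0.004 and -0.51.

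Of genes up to 700 bases 27.7% were at least 2-fold lower in NLRP3KO, and 5 of the 16 members in that range were. In pooled fragments the ratio of NLRP3KO to WT was 0.61 (0.55 to 0.675) for members up to 700 bases, 0.884 (0.832 to 0.939) for those up to 1500 bases and 0.865 (0.799 to 0.936) for longer ones. The ratio thus stayed below 1 in each length range on this yardstick, and the part of length in the remaining difference was not tested. B cell markers moved in the same direction in the naive libraries, with 4 of 4 lower and 2 of them at least 2-fold lower in NLRP3KO. Cd79a had 15.0 FPKM in NLRP3KO and 37.1 in WT. Their part in the members' difference was not tested.

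**Figure D2:**
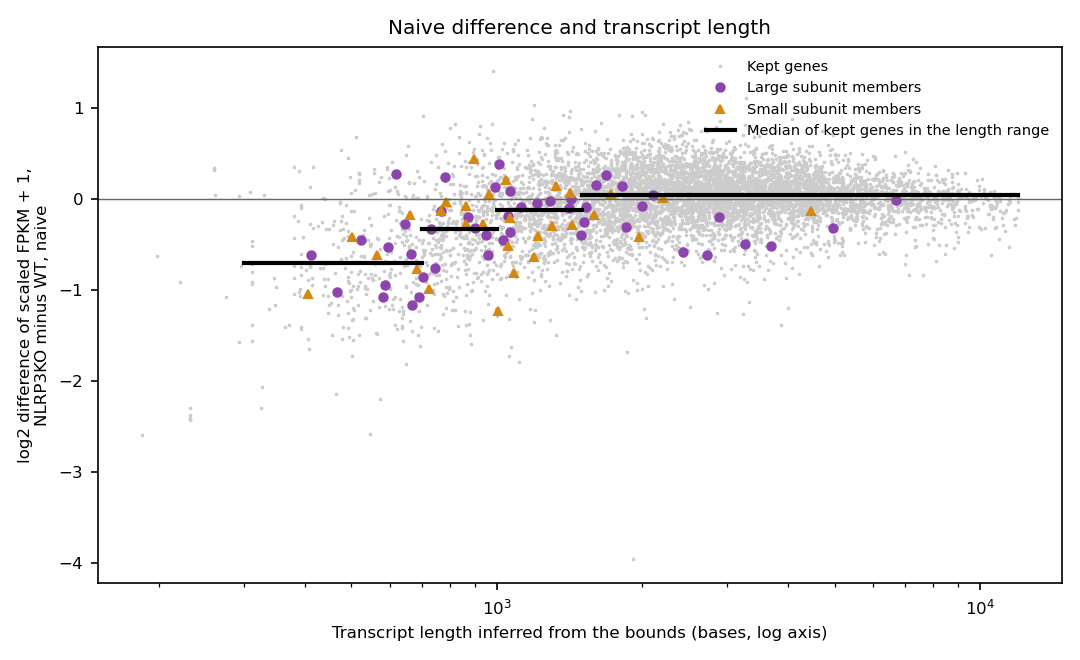
Log2 difference of scaled FPKM plus 1, NLRP3KO minus WT in naive cells, against transcript length (log axis); grey points are genes that reached FPKM 1 and have a recovered length, coloured points the 76 members (15 with a less exact length) and black bars the median of the grey genes in each length range. Short genes sit lower, at -0.71 up to 700 bases against 0.05 above 2500, and 60 of the 76 members lie below 0.

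In the Th2 libraries single members rested on a few fragments, so they were pooled. Above 0 were 30 of 76 members in NLRP3KO day 3, 41 in WT day 3, 7 in NLRP3KO day 6 and 48 in WT day 6. Of all entries, 27.2%, 28.8%, 11.9% and 29.4% were above 0 in the same 4 libraries, against 39.5%, 53.9%, 9.21% and 63.2% of members. At day 3, 20 members were above 0 in both libraries, 10 in NLRP3KO alone, 21 in WT alone and 25 in neither. Of all entries, 19.8% were above 0 in both day 3 libraries, 7.44% in NLRP3KO alone, 9.05% in WT alone and 63.7% in neither. At day 6, 4 were above 0 in both, 3 in NLRP3KO alone, 44 in WT alone and 25 in neither. The same shares of all entries were 9.63%, 2.23%, 19.8% and 68.4%, with 3903 fragments on genes in NLRP3KO and 22086 in WT. No member had more than 6 fragments in any of them. A value of 0 therefore says only that a member was not detected at this depth, and 14 members were listed at 0 in all 4 Th2 libraries, among them Mrps24, Mrpl23, Mrps11 and Mrpl46. Of the other members with the lowest naive differences, Mrps21 had FPKM of 16.1 in NLRP3KO day 3 and 12.7 in WT day 3. At day 6 Mrps21 had 0 in NLRP3KO and 6.67 in WT, and each nonzero value came from 1 or 2 fragments. Mrpl42 was above 0 in 2 Th2 libraries, NLRP3KO day 3 at 4.04 and WT day 6 at 3.38, and Mrpl30 was above 0 in NLRP3KO day 6 alone, at 14.2. At 1 or 2 fragments no difference between these libraries was detectable for single members.

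**Figure D3:**
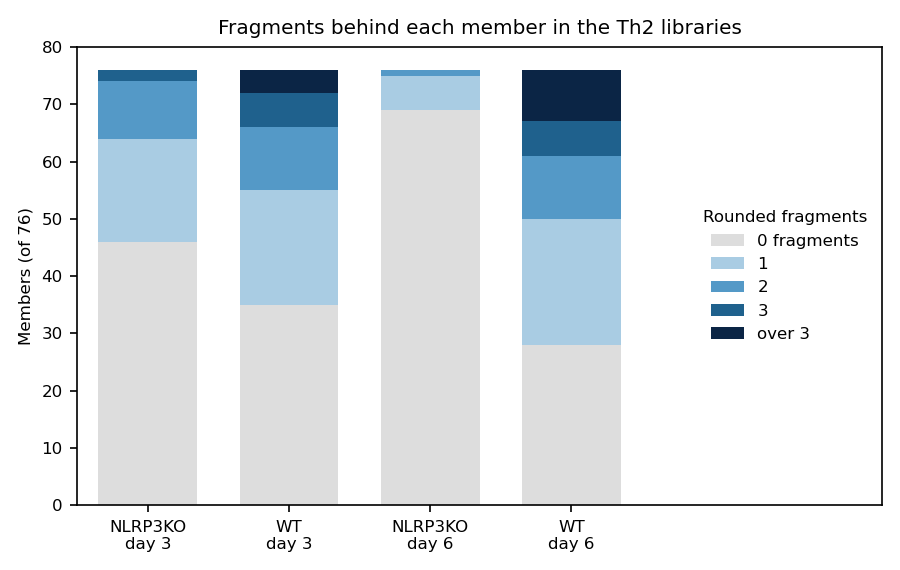
Number of the 76 members by the rounded number of fragments behind them (values under 1 counted as 1) in each Th2 library, NLRP3KO left of WT at each day. Members at 0 numbered 46 in NLRP3KO and 35 in WT at day 3, and 69 in NLRP3KO and 28 in WT at day 6.

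At day 3 the members together took a smaller share in NLRP3KO than in WT. The 76 members summed to 44 fragments in NLRP3KO and 79 in WT, set against 17594 and 21132 fragments on genes, or 25.0 per 10000 (18.2 to 33.6) and 37.4 (29.6 to 46.6). The ratio was 0.669 (0.452 to 0.979). Large subunit members gave 0.683 (0.417 to 1.10), from 29 and 51 fragments in NLRP3KO and WT. Small subunit members gave 0.643 (0.319 to 1.25), from 15 and 28 fragments. Both intervals include 1, while that of the 76 members together does not. The interval of all members reached 1 without Mrpl24, the member with most fragments over both day 3 libraries (0.698, 0.468 to 1.03), and with the authors' totals as the yardstick (0.708, 0.478 to 1.04).

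The day 3 ratio was lowest for short members. Up to 700 bases, members had 4 fragments in NLRP3KO and 18 in WT, a ratio of 0.267 (0.0657 to 0.810). Those over 1500 bases had 19 in NLRP3KO and 23 in WT, a ratio of 0.992 (0.511 to 1.91), and without members up to 700 bases the pooled ratio was 0.788 (0.515 to 1.19). The intervals of the short and long members overlap, and whether length bears on the day 3 difference was not tested. Mrpl52 had 6 fragments in WT day 3 and none in NLRP3KO day 3, and Mrpl33 4 in WT and none in NLRP3KO.

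At day 6 the NLRP3KO library was the shallowest of the series, and its members had 8 fragments, set against 3903 on genes, or 20.5 per 10000 (8.85 to 40.4). The WT library had 106, set against 22086, or 48.0 per 10000 (39.3 to 58.0). The ratio was 0.427 (0.180 to 0.873). Large subunit members had 6 fragments in NLRP3KO and 69 in WT, and small subunit members 2 and 36, with ratios of 0.492 (0.175 to 1.13) and 0.314 (0.0367 to 1.22). The 7 members above 0 in NLRP3KO day 6 were Mrpl10, Mrpl19, Mrpl30, Mrpl36, Mrpl41, Mrps30 and Mrps6, each with 1 or 2 fragments. Only 4 of the 8 fragments lie on members that overlap no other gene, against 94 in WT, a ratio of 0.241 (0.0643 to 0.637). By length, members over 1500 bases had 5 fragments in NLRP3KO and 29 in WT, a ratio of 0.976 (0.295 to 2.55). Those over 700 and up to 1500 bases had 2 in NLRP3KO and 62 in WT, a ratio of 0.183 (0.0216 to 0.688), and those up to 700 bases 1 and 15, a ratio of 0.377 (0.00896 to 2.45). These 3 intervals overlap.

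**Figure D4:**
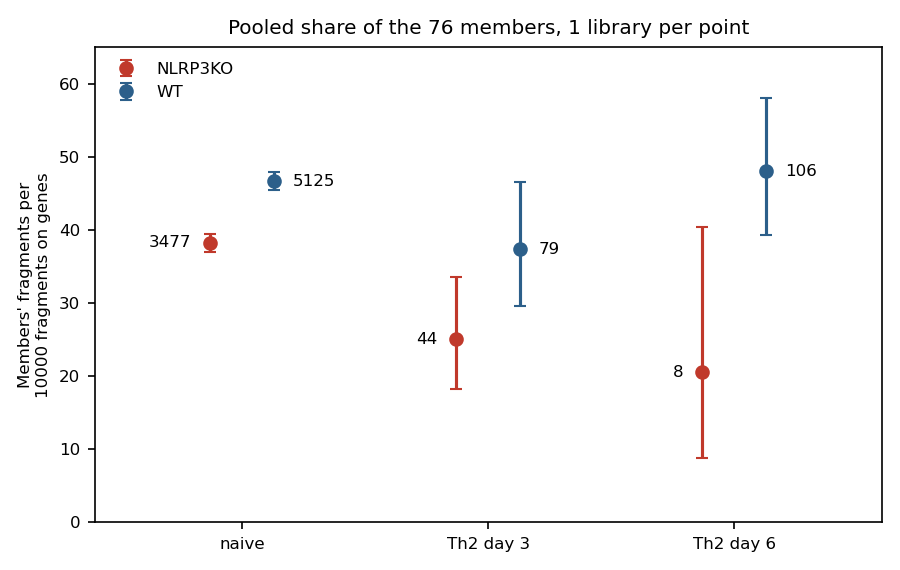
Fragments on the 76 members per 10000 fragments on genes in each library, NLRP3KO (red) left of WT (blue) at each stage; bars are exact 95% binomial intervals, which cover counting error only, and the number beside each point is the members' fragments. NLRP3KO lies below WT at each stage, at 38.2 against 46.7 in naive cells, 25.0 against 37.4 at day 3 and 20.5 against 48.0 at day 6.

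The 8 members with most fragments over the 4 Th2 libraries were Mrpl24, Mrpl12, Mrpl18, Mrpl45, Mrpl9, Mrps18a, Mrpl35 and Mrpl40. Mrpl12 had 1 fragment in NLRP3KO day 3, 3 in WT day 3, 0 in NLRP3KO day 6 and 6 in WT day 6. Mrps18a had 3, 2, 0 and 3 in the same order of libraries, and Mrpl18 had 2, 2, 0 and 4. Mrpl9 had 1 fragment in NLRP3KO day 3 and 3 in WT day 3, then 4 in WT day 6, and Mrpl40 had 1 in each genotype at day 3 and 5 in WT day 6. Mrpl35 had 2 fragments in NLRP3KO day 3 and 4 in WT day 3, with 1 in WT day 6, and Mrpl24 an estimated 1.1 in NLRP3KO day 3 and 5.0 in WT day 3, with 5.7 in WT day 6. Mrpl45, a large subunit protein that anchors the ribosome to the inner membrane, had 2 fragments in NLRP3KO day 3, none in WT day 3, none in NLRP3KO day 6 and 6 in WT day 6. None of the 8 was detected in NLRP3KO day 6. Mrpl10 was the only member above 0 in all 4 Th2 libraries, with FPKM of 1.37 in NLRP3KO day 3, 2.16 in WT day 3, 5.02 in NLRP3KO day 6 and 2.31 in WT day 6, each from 1 or 2 fragments.

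Set against naive cells, the members' share was not higher at day 3. In NLRP3KO it was 25.0 per 10000 at day 3 and 38.2 in naive cells, a ratio of 0.654 (0.475 to 0.880). In WT it was 37.4 at day 3 and 46.7 in naive cells, a ratio of 0.801 (0.633 to 1.00). Purified mRNA went into the naive libraries and rRNA-depleted RNA into the Th2 libraries, so the culture and the library type cannot be told apart. Reads assigned to Lars2, the gene of a mitochondrial leucyl-tRNA synthetase, took 1.26% of fragments on genes in naive NLRP3KO and 3.01% in naive WT. In the Th2 libraries they took between 15.0% and 19.6%. Lars2 had FPKM between 999 and 2004 in the 6 libraries, whereas the synthetase gene Sars2 had 9.47 in naive NLRP3KO and 5.68 in naive WT. Whether the reads on Lars2 come from its mRNA was not tested. Without Lars2 among the fragments on genes the ratios were 0.76 (0.552 to 1.02) in NLRP3KO and 0.962 (0.760 to 1.20) in WT. As a share of the authors' totals they were 0.0829 in NLRP3KO and 0.117 in WT.

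Day 6 and day 3 libraries were of the same type, and both intervals of the members' ratio between them include 1. In WT it was 48.0 per 10000 at day 6 and 37.4 at day 3, a ratio of 1.28 (0.950 to 1.74). The WT interval lay above 1 with the authors' totals as the yardstick (1.44, 1.07 to 1.95) and for members over 700 bases (1.43, 1.02 to 2.01). In NLRP3KO it was 20.5 at day 6 and 25.0 at day 3, a ratio of 0.82 (0.333 to 1.76), on 8 and 44 fragments.

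The genes that work with the mitochondrial ribosome did not all move with the members in naive cells. The transcript lengths of these lists were not matched to those of the members, and the part of length in this contrast was not tested. Of 6 subunits with other symbols, 5 were below 0 on the scaled log2 difference and 4 were lower as deposited, 1 of them at least 2-fold lower, with a median of -0.54. Chchd1, a small subunit protein, had 27.1 FPKM in NLRP3KO and 59.5 in WT, a log2 difference of -1.43. Gadd45gip1, a large subunit protein, had 14.8 in NLRP3KO and 23.0 in WT, a difference of -0.88. Dap3, a GTP-binding small subunit protein, had 13.7 in NLRP3KO and 10.5 in WT, a difference of -0.03. Pooled, the 6 gave a ratio of 0.781 (0.702 to 0.869). In the Th2 libraries they gave 1.05 (0.324 to 3.32) at day 3, from 7 fragments in NLRP3KO and 8 in WT, and 1.21 (0.223 to 4.35) at day 6, from 3 and 14. Those intervals include 1 and also the members' ratios of 0.669 and 0.427.

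The cytosolic ribosomal protein genes, 73 entries of mostly short and abundant transcripts, stood lower still in naive NLRP3KO, with a median log2 difference of -1.0 over the 72 entries kept, 36 of them at least 2-fold lower and 1 higher. They took 534.1 per 10000 fragments on genes in NLRP3KO and 842.5 in WT, a ratio of 0.634 (0.627 to 0.641), and have many pseudogene copies that can share reads. At day 3 and day 6 their ratios were 0.984 (0.892 to 1.09) and 0.885 (0.742 to 1.05), whereas those of the members were 0.669 and 0.427. The difference between these ratios was not tested.

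On the log2 difference of scaled FPKM plus 1, none of the genes of the other 4 lists was 2-fold apart in naive cells. All 4 list medians lay above 0 by less than 0.1. By the plain ratio of deposited FPKM some were more than 2-fold higher in NLRP3KO, such as Wbscr16, with 7.09 in NLRP3KO and 3.18 in WT. The median log2 difference of all genes was 0.37 with FPKM as deposited. Translation factors had a median of 0.04 over 10 genes. Gfm2, an elongation factor G paralog that acts in ribosome recycling, had 7.98 FPKM in NLRP3KO and 5.08 in WT, a log2 difference of 0.15, and Tufm, which delivers tRNA to the ribosome, 7.88 in NLRP3KO and 5.49 in WT, a difference of 0.06. Assembly and ribosomal RNA modification factors had a median of 0.07 over the 20 of 22 listed that matched. Among them Dhx30, an RNA helicase, had 17.0 in NLRP3KO and 8.64 in WT (0.43), Eral1, a GTPase that binds the small subunit RNA, 12.3 in NLRP3KO and 6.07 in WT (0.42), and Ftsj2, an RNA methyltransferase, 3.31 in NLRP3KO and 5.52 in WT (-0.64).

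Genes of mitochondrial transcription and mRNA handling had a median of 0.09 over 9 matched of 11 listed, with Polrmt, the mitochondrial RNA polymerase, at 5.29 FPKM in NLRP3KO and 2.56 in WT (0.32). Regulators of nuclear genes for mitochondria had a median of 0.07 over 9 genes, with Myc at 25.3 in NLRP3KO and 13.6 in WT (0.40), Gabpa at 9.64 in NLRP3KO and 6.09 in WT (0.16), and Ppargc1a listed at 0 in all 6 libraries. Pooled, these 4 lists gave naive ratios between 1.09 and 1.31. The assembly factors had 1.31 (1.19 to 1.43), the transcription list 1.12 (1.01 to 1.25), the regulators 1.09 (1.01 to 1.17) and the translation factors 1.13 (0.987 to 1.29). At day 3 the intervals of the translation, assembly and transcription lists included 1, while the ratio of the regulators was 0.554 (0.298 to 0.992), from 18 fragments in NLRP3KO and 39 in WT.

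**Figure D5:**
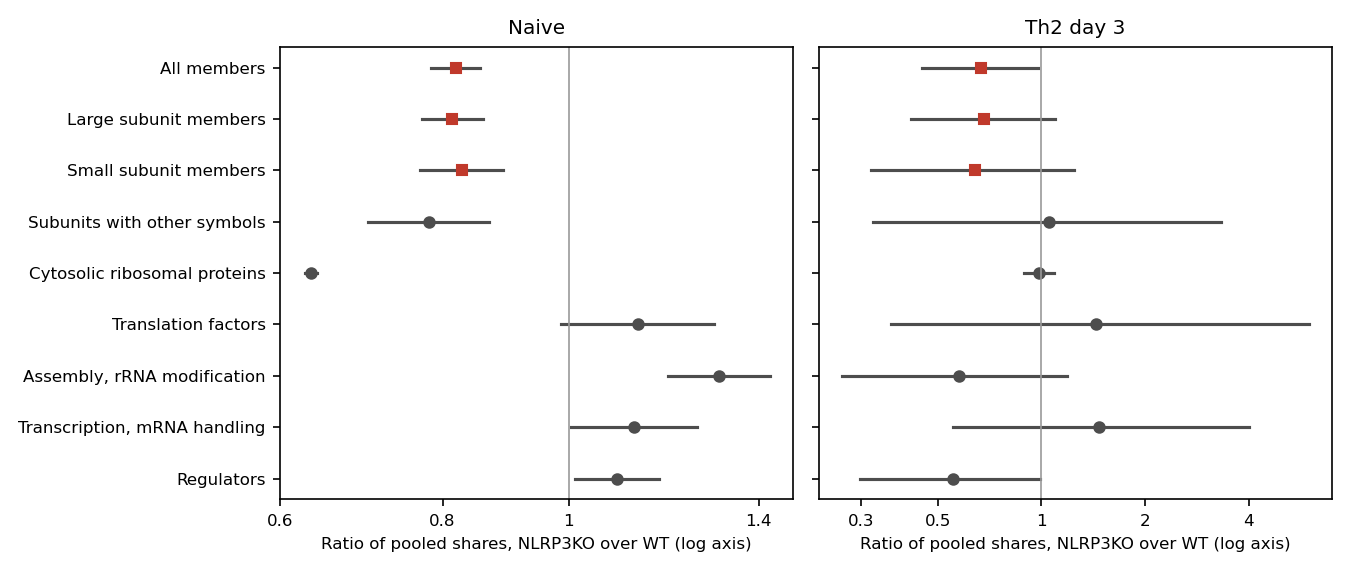
Ratio of pooled shares of fragments on genes, NLRP3KO over WT (log axis), for the members (squares) and related gene lists (circles) in naive cells (left panel) and at day 3 of Th2 culture (right panel); lines are exact 95% intervals for counting error. In naive cells the members sit at 0.819 and the cytosolic ribosomal proteins at 0.634, while the assembly factors sit at 1.31.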

How the data were processed

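RNA-seq of 6 libraries, 1 per group, was used. Per the labels' protocols, 300000 cells were extracted, and 1 µg of RNA was either depleted of rRNA (Th2) or purified for mRNA (naive) before 12 cycles of PCR. For each library the authors deposited FPKM with bounds and a status, per the file headers. TopHat, Cufflinks and mm9 are named in the submitters' processing notes, with versions and annotation not given in the sources used here. Of 23700 entries, 285 without the status OK were left out.

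No count test was run on FPKM values. They were scaled by the median ratio over 1059 genes, a pseudocount of 1 was added, and log2 differences of genes reaching FPKM 1 in a naive library were called at 2-fold; they understate low genes. Each bound was taken to be a whole number of fragments over total and length, which could not be shown for every model. Single-exon models gave totals between 129744 and 4571257 fragments and mean fragment lengths between 140.3 and 180.3 bases. The smallest length that made the bounds whole in all libraries was sought between 150 and 12000 bases (relative tolerance 1.2e-05). A length below the true one can pass, so some recovered lengths, and fragments that rest on them, may be too low. How many are was not checked. Mrps31, at 768 bases, had fragments that were not whole, 11.3 in naive NLRP3KO and 14.4 in naive WT. A length was found for 61 of the 76 members. Among these, the fragments of all members above 0 in the Th2 libraries, and of 49 of 61 in each naive library, were whole within 0.02. Whole fragments also made it easier for a length to be accepted, so these numbers are not an independent check. The other 15 members have estimates from the ratio of their bounds, and 9 overlap another gene. Fragments on genes are those of 8349 models over 300 bases with a recovered length, without structural RNAs, which leaves out those 15 members. The length search, fragment estimates, scaling and intervals were tried on data simulated from the same model, with totals and mean fragment length given. The step that takes these from single-exon models was not tested, and the simulation held no overlapping genes. Intervals are exact (Clopper-Pearson, 95%) and cover counting error only, since PCR copies were not marked.

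Members and lists were chosen with earlier results of these data known. Named were the 10 highest and 5 lowest members in naive FPKM, the 6 highest and 6 lowest naive differences among those with FPKM of at least 5, those 2-fold apart with separate bounds, the 8 with most Th2 fragments, the Mrps18 paralogs, and up to 4 genes of each other list. The 7 members above 0 in NLRP3KO day 6, Mrpl46 and members named for their fragments in 1 library were chosen after their values were seen. Python 3.11.15, numpy 2.4.6, pandas 2.3.3, scipy 1.17.1 and matplotlib 3.10.9 were used.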

Additional observations from a re-analysis of the deposited data

How the results depend on the processing

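No paired analysis was possible because, within a stage, each genotype had 1 library and no second replicate number. A fit of genotype over all stages, with stage as a block, could be made and was not run. For the 3 genotype comparisons the pooled ratio stayed below 1 under all 9 alternatives, between 0.693 and 0.996 in naive cells, 0.448 and 0.788 at day 3, and 0.227 and 0.453 at day 6. In naive cells it left the 95% interval of 0.784 to 0.855 with median-ratio size factors (0.744), summed scaled FPKM (0.693), members with whole fragments only (0.858), the authors' totals (0.996) and members over 700 bases (0.877). At day 3 it left its interval with summed scaled FPKM (0.448). Day 3 against naive left its interval with the authors' totals, at 0.117 in WT and 0.0829 in NLRP3KO, and in NLRP3KO with members of whole fragments only (0.453). Day 6 against day 3 lay between 1.05 and 1.44 in WT and between 0.501 and 0.866 in NLRP3KO. In WT, where the interval of 0.950 to 1.74 includes 1, it no longer did with the authors' totals (1.07 to 1.95) or with members over 700 bases (1.02 to 2.01). The median log2 difference of members in naive cells, -0.27, turned to 0.0723 with FPKM as deposited, where the median of all genes was 0.37, and was -0.13 with a pseudocount of 5. The 6 members at least 2-fold apart became 10 with a pseudocount of 0.1, 0 with a pseudocount of 5, 1 with FPKM as deposited, 3 among members whose FPKM lay within its bounds and 1 among members over 700 bases. Of all genes kept, 2.53% were 2-fold apart, 8.02% with a pseudocount of 0.1, 1.1% with one of 5, 6.7% as deposited and 1.47% within their bounds. The setting over 700 bases left out short members only, so it has no such share. Over the 5 settings that change a gene's own value, 148 of 150 values of 30 named members moved by less than 0.5 on the log2 scale. That tolerance is wider than the members' median of -0.27, so it says little about small differences. None that was 2-fold apart changed sign. Among smaller ones, Mrpl17, Mrpl24, Mrpl36, Mrpl40, Mrps18a and Mrps25 were below 0 after scaling and above 0 with FPKM as deposited. The settings with the authors' totals, without Lars2, with all models, without overlapping members and with members over 700 bases were chosen after seeing the data. Depth limits the Th2 results, since 8 fragments carry the NLRP3KO day 6 value.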

Other observations

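Members lie close to other genes. The locus overlapped no other locus in the deposited tables and had one within 500 bases for 26 of 76 members (34.2%), against 11.2% of all entries and 18.0% of genes that reached FPKM 1 in a naive library. Mrps12 lay 186 bases from Sars2, the mitochondrial seryl-tRNA synthetase, Mrpl43 115 bases from Peo1, the helicase of mitochondrial DNA, and Mrpl47 307 bases from Ndufb5, a subunit of respiratory complex I. In naive cells Mrps12 had 10.2 FPKM in NLRP3KO and 15.1 in WT, with overlapping bounds, while Sars2 had 9.47 in NLRP3KO and 5.68 in WT. These neighbours were picked after their names were seen.

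Members with at least 1 of the NRF-1, ETS or YY1 letters in the promoter window had a median naive log2 difference of -0.33 (41 members), and those without had one of -0.18 (26 members). Taken singly the letters differed in direction. With and without the ETS letters the medians were -0.37 (24 members) and -0.20 (43 members), with and without the NRF-1 letters -0.22 (12 members) and -0.27 (55 members), and with and without the YY1 letters -0.23 (12 members) and -0.27 (55 members). These are descriptions of the same 2 libraries and were not tested.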
